A study of Mus musculus with 18 samples.

Results

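The suppressors of cytokine signaling followed here were Cish, Socs1, Socs2 and Socs3, in factor-dependent myeloid (FDM) cells, WT or p53-/-, that were growing in IL-3 or had lost it. They were found by symbol in the annotation of the array, which gave 6 probes out of 46632 for these 4 genes. Cish and Socs3 had 1 probe each, and Socs1 and Socs2 had 2 each. Probes whose detection p was below 0.01 somewhere in the series were kept for testing, and 5 of the 6 were among those 21413. The kept probes named 11195 genes in all. The second Socs2 probe was not detected on any of the 18 arrays and gave no value. For Socs1 and Socs2 the brighter probe is meant unless the other is named.

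CIS, the product of Cish, and the SOCS proteins are feedback inhibitors of cytokine receptors. A cytokine such as IL-3 binds a receptor made of its own alpha chain and a shared beta chain, the associated kinase JAK2 phosphorylates the receptor and the transcription factor STAT5, and STAT5 then switches on genes that include those of its own inhibitors. CIS and SOCS2 bind phosphorylated receptors through their SH2 domain, SOCS1 and SOCS3 can also block the kinase itself, and all carry a SOCS box that recruits a ubiquitin ligase. Because their transcripts are short-lived, their levels in blood cells are often read as a sign of current cytokine signaling.

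FDM cells are mouse myeloid cells that were transformed with HoxB8 and depend on IL-3. RNA came from 3 independent clones without a p53 mutation (WT) and 3 clones lacking p53 (p53-/-), each taken while growing in IL-3 (0 h) and at 6 h and 18 h after IL-3 was removed, which gave 6 groups of 3 Illumina MouseWG-6 V1 arrays. All 6 groups therefore carry HoxB8, and any difference between genotypes rests on 3 clones against 3. Trp53 itself was not analysed here, and the genotype of each array rests on its label.

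Median intensity ran from 102.9 to 175.2 over the 18 arrays. One array stood apart, the third of p53-/- cells at 18 h, with 27.0% of probes detected against 30.7% to 34.0% on the other 17, and carried the lowest weight in the model, 0.0905 against 0.467 to 4.34. Of 13 myeloid progenitor markers 12 were measured and 7 were detected on all 18 arrays, among them Spi1, Cebpa and Prtn3, while Kit was detected on 1 array and the Flt3 probes on none. Between 7 and 8 of 8 measured mast cell and basophil markers were detected on every array. RNA came from whole cultures, so less of a transcript per cell and fewer cells that carry it cannot be told apart. The third WT clone differed from the rest in neutrophil markers, with 7 of 7 detected at every time. The log2 of their summed intensity was 15.0, 15.2 and 15.9 in that clone at 0, 6 and 18 h, against 9.81 to 10.8 in the other WT clones and 8.35 to 9.13 in p53-/- clones. Erythroid and megakaryocyte markers moved with genotype. At 0 h their summed level was 13.02 to 13.54 in WT and 14.3 to 15.7 in p53-/- cells, with 5 to 7 and 10 of 10 markers detected. Of the 10, 3 were called higher in p53-/- cells. Among all 21413 kept probes 927 were called in either direction, 54.4% of them lower. Markers of mast cells and basophils summed to 16.12 to 16.56 in WT and 15.79 to 16.05 in p53-/- cells at 0 h. Of these 8 markers 2 were called lower in p53-/- cells (Cpa3 and Fcer1a). Those of monocytes and macrophages summed to 10.14 to 11.76 and 8.04 to 8.76, with 1 of 5 called lower (Adgre1). Of all kept probes 2.35% were called lower. The part of these cell type differences in the results on genotype was not tested.

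Promoter sequence was available for 3 of the 4 genes from RefSeq (GRCm38.p6), and it is shown because STAT5 acts on such genes through a short palindrome, TTCNNNGAA, where N is any base. The motif reads the same on both strands, and its matches are in capitals. The sequence of Cish runs from 250 bases before the transcription start to 30 bases after it, on the plus strand at chr9:107296409-107296688. Those of Socs3 and Socs1 hold the 250 bases before the start, on the minus strand at chr11:117969367-117969616 and chr16:10785537-10785786.
Cish: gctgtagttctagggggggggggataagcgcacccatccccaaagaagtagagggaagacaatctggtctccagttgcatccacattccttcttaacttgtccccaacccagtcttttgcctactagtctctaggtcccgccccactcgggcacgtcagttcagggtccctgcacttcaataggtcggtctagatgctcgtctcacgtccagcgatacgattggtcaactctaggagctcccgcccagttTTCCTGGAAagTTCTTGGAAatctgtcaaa
Socs3: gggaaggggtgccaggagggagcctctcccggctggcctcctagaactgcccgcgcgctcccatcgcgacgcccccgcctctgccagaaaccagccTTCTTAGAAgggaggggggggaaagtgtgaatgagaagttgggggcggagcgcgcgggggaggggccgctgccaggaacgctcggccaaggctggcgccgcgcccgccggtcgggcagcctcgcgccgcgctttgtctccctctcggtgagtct
Socs1: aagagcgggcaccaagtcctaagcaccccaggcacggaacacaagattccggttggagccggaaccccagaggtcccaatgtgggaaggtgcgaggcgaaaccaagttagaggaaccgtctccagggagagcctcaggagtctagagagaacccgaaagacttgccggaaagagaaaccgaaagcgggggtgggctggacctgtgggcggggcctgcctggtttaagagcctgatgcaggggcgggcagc
Cish held 2 matches, both just inside the transcribed sequence, from base 1 to 9 and from base 12 to 20 counted from the start. Socs3 held 1 match that began 154 bases before the start. In Socs1 there was no match in the 300 bases searched, 250 before the start and 50 after it. In the table of 32851 mouse promoters of that length, 8.30% held at least 1 match and 0.457% held 2 or more. A match is a run of letters and does not show that STAT5 binds there.

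Cish was the transcript whose 6 groups were most clearly ordered. In WT clones 1, 2 and 3 its normalized log2 intensity was 13.49, 13.77 and 13.69 at 0 h, 11.39, 11.59 and 11.51 at 6 h, and 11.65, 11.73 and 11.64 at 18 h. In p53-/- clones it was 12.81, 12.59 and 12.46 at 0 h, 10.54, 10.74 and 10.33 at 6 h, and 11.27, 11.30 and 11.03 at 18 h. From highest to lowest the groups were WT at 0 h, p53-/- at 0 h, WT at 18 h, WT at 6 h, p53-/- at 18 h and p53-/- at 6 h, and no group overlapped the next. The gap between the means of neighbors was smallest between WT cells at 18 h and 6 h, at 0.17. In the plot of levels by clone the lines of the genotypes run nearly parallel for Cish up to 6 h.

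**Figure D1:**
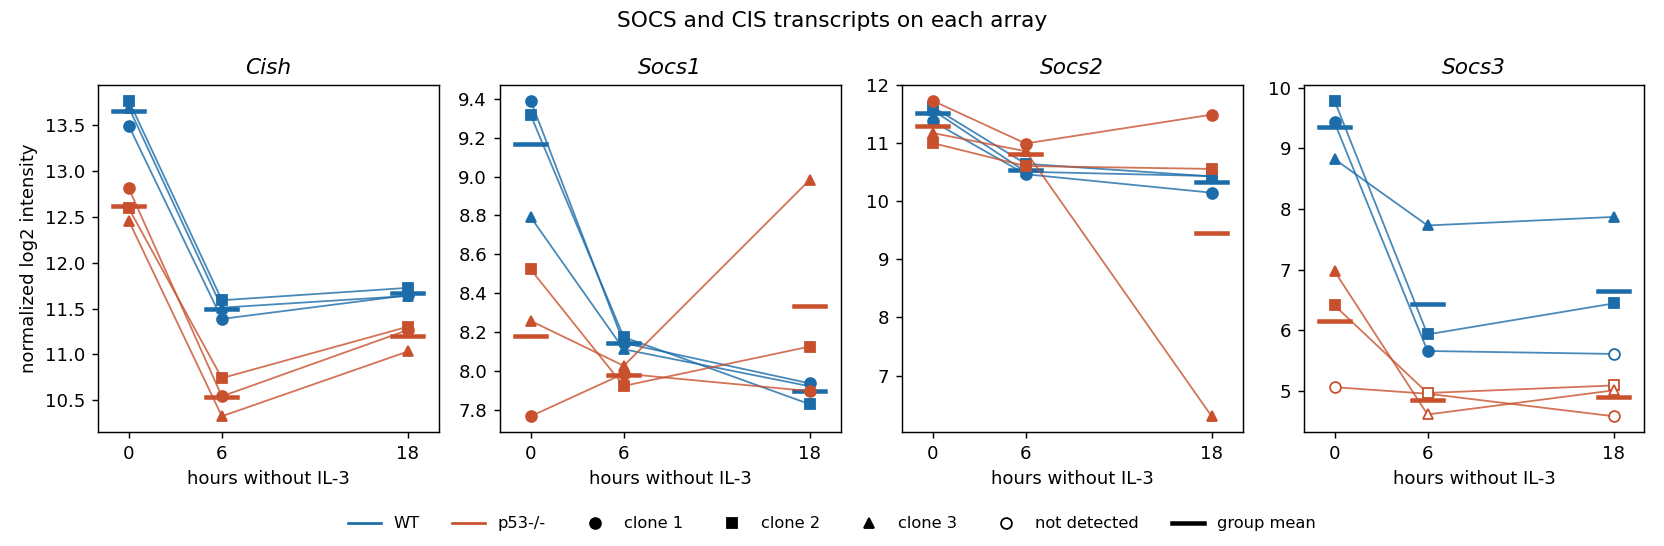
Normalized log2 intensity (vertical axis, scaled separately for each gene) of Cish, Socs1, Socs2 and Socs3 against hours without IL-3, with WT in blue and p53-/- in red. Each line joins the samples of 1 clone, open symbols were not detected (p of 0.01 or higher), and bars are plain means of 3 clones. The p53-/- Cish values lie under the WT values at each time, and Socs3 was detected in 2 of 3 p53-/- clones at 0 h and in none later.

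While cells grew in IL-3, Cish expression was lower in p53-/- than in WT cells by 1.11 on the log2 scale (SE 0.158), a 2.15-fold difference, with an adjusted p of 0.000994 in limma. A gene passed, as in the methods of the study, at a Benjamini-Hochberg adjusted p of 0.1 or lower over all kept probes together with a positive B statistic (log odds of a change). After 6 h without IL-3 Cish fell by 2.21 in WT cells (SE 0.113, adjusted p = 1.93e-08) and by 2.01 in p53-/- cells (SE 0.168, adjusted p = 1.82e-05) in limma. Those are falls of 4.62-fold and 4.02-fold, and the single-clone differences ran from 2.10 to 2.18 in WT and from 1.85 to 2.27 in p53-/- clones. The difference between these changes was 0.20 (95% confidence interval -0.23 to 0.63, adjusted p = 0.821 in limma) and did not pass, so the interval still allows a moderate difference between genotypes. At 6 h, as at 0 h, Cish was lower in p53-/- cells, by 0.90 (SE 0.127, adjusted p = 0.000218 in limma).

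Between 6 h and 18 h Cish was higher at the later time in 6 of 6 clones. The differences were 0.26, 0.13 and 0.13 in WT clones and 0.72, 0.56 and 0.71 in p53-/- clones. In p53-/- cells the rise of 0.67 passed in limma (SE 0.148, adjusted p = 0.0279, B 0.358), but narrowly. It lost the call when any of 8 single arrays was left out, when the third WT clone was left out, with median scaling, with no array weights and when only those arrays were fitted. In WT cells the 0.18 did not pass (95% confidence interval -0.08 to 0.44, adjusted p = 0.329), and the genotypes differed in this change by 0.49 (95% confidence interval 0.08 to 0.90, adjusted p = 0.185 in limma), which did not pass either. At 18 h the lower level in p53-/- cells, 0.42 on the log2 scale, did not pass (adjusted p = 0.0524, B -3.19 in limma). The groups did not overlap. With 3 arrays against 3 an exact permutation test can give no p below 0.1, so a lack of overlap, here or elsewhere, is a description only. Compared with 0 h, Cish was still lower at 18 h by 2.02 in WT (adjusted p = 1.75e-08) and by 1.34 in p53-/- cells (adjusted p = 0.000592), both of which passed in limma. The p53-/- call was lost without the first or the second p53-/- array at 18 h, with adjusted p = 0.258 and 0.327 in limma.

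Socs3 showed the largest difference between the genotypes among these genes. In WT clones 1, 2 and 3 the log2 level was 9.43, 9.79 and 8.82 at 0 h. In p53-/- clones it was 5.06, 6.41 and 6.97 at 0 h, and it was not detected in the first of them. The groups did not overlap, and the level was lower in p53-/- cells by 3.41 (SE 0.589, adjusted p = 0.00257 in limma), with 2 of 3 p53-/- arrays detecting it. Intensity before normalization was 868.6, 1171.8 and 610.1 in WT clones against 183.3, 185.6 and 212.2 in p53-/- clones, close to the background of the arrays.

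After IL-3 was removed, Socs3 in WT clones was 5.65, 5.93 and 7.73 at 6 h and 5.61, 6.44 and 7.87 at 18 h, with the 5.61 not detected. It fell by 3.34 from 0 h to 6 h (SE 0.422, adjusted p = 8.12e-05) and by 3.17 from 0 h to 18 h (SE 0.435, adjusted p = 3.28e-05) in limma. On the processed values of the authors these changes were -1.36 and -1.35, and both still passed. The third WT clone, the one with neutrophil markers, kept the highest level at 6 h and 18 h, and its difference from 0 h to 6 h was 1.10 against 3.77 and 3.86 in the other clones. With all 3 arrays of that clone left out the fall at 6 h was 3.82 (adjusted p = 0.000107) and the difference between genotypes at 0 h was -3.43 (adjusted p = 0.000699) in limma, so both were at least as large without it. The order of the WT groups at 6 h and 18 h was not resolved.

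In p53-/- clones Socs3 was 4.95, 4.96 and 4.61 at 6 h and 4.58, 5.09 and 5.004 at 18 h, none of them detected. Differences against those groups are therefore bounds, set by the lowest signal among detected probes on each array. An adjusted p beside a bound, here and below, belongs to the fitted change. The p53-/- mean at 0 h was 1.45-fold the bound at 6 h (adjusted p = 0.304 in limma), which did not pass. That mean includes the first clone, not detected at 0 h, at its measured 5.06, so 1.45-fold is not a strict lower limit. The WT mean was at least 1.77-fold that of p53-/- cells at 6 h (adjusted p = 0.0529). At 18 h, where 2 of 3 WT arrays detected it, the WT mean was 1.79-fold the bound (adjusted p = 0.0494, B -3.11). Neither passed in limma, because B was negative in both. Both ratios leaned on the third WT clone. The bound was 5.61 at 6 h, against 5.65, 5.93 and 7.73 in WT clones, and 5.80 at 18 h, against 5.61 (not detected), 6.44 and 7.87. With that clone left out the fitted differences went from -1.34 and -1.57 to -0.87 and -1.15. The change from 0 h to 6 h differed between genotypes by 2.07 (SE 0.755, adjusted p = 0.466 in limma) and did not pass, and the p53-/- side of it ends at the floor of the array.

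Socs1 was lower in p53-/- cells at 0 h and fell in WT cells. Its log2 level at 0 h was 9.39, 9.32 and 8.79 in WT clones and 7.77, 8.52 and 8.26 in p53-/- clones, with no overlap. The difference was -1.05 (SE 0.198, 2.07-fold lower in p53-/- cells, adjusted p = 0.00398 in limma). WT clones then read 8.143, 8.17 and 8.11 at 6 h and 7.94, 7.83 and 7.92 at 18 h, each time within 0.1 of their group mean. The WT fall was 1.10 at 6 h (SE 0.142, adjusted p = 0.000102) and 1.38 at 18 h (SE 0.147, adjusted p = 3.12e-06) in limma. p53-/- clones read 7.99, 7.92 and 8.03 at 6 h and 7.90, 8.13 and 8.98 at 18 h. None of the changes in these clones passed, and that from 0 h to 6 h was -0.23 (95% confidence interval -0.68 to 0.22, adjusted p = 0.647 in limma). At 6 h and 18 h WT and p53-/- cells differed by -0.19 and 0.18, neither of which passed. The genotype difference in the change to 6 h was 0.86 (SE 0.254, adjusted p = 0.404 in limma).

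The dimmer Socs1 probe was detected on all 18 arrays and gave smaller differences. At 0 h it read 6.58 to 6.82 in WT and 5.74 to 6.15 in p53-/- clones, and the difference of -0.67 had an adjusted p of 0.0382 in limma with B at -2.09, so it did not pass. In WT cells its difference from 0 h was -0.28 at 6 h (adjusted p = 0.205) and -0.20 at 18 h (adjusted p = 0.32) in limma, and neither passed. The probes thus shared the sign of these 3 differences and only the brighter one passed. Without the first or second WT array or the first p53-/- array at 0 h the brighter probe also lost its call between genotypes, with differences of -0.86, -0.90 and -0.86.

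Socs2, which in mice is best known as the brake on growth hormone signaling, did not differ between genotypes at 0 h beyond the spread of the clones. The log2 level was 11.38, 11.63 and 11.57 in WT and 11.73, 11.003 and 11.18 in p53-/- clones, and the difference was -0.29 (95% confidence interval -1.11 to 0.52, adjusted p = 0.679 in limma). The interval does not shut out a difference as large as that of Cish. In WT clones the level was 10.47, 10.65 and 10.51 at 6 h and 10.15, 10.43 and 10.43 at 18 h, without overlap with 0 h or with each other. The difference from 0 h was -1.03 at 6 h (SE 0.276, adjusted p = 0.0183, B -1.60) and -1.23 at 18 h (SE 0.285, adjusted p = 0.0027, B -0.643) in limma, and neither passed for want of a positive B. Under 10 other settings the call at 6 h passed in 3 and that at 18 h in 6, among them, for both, the fit to the compared arrays only and the processed values of the authors. Both passed once the third p53-/- array at 18 h was left out, with adjusted p = 0.00134 at 6 h and 0.000107 at 18 h, and that at 18 h also passed without the first p53-/- array of that time and with clone as a block (-1.20, adjusted p = 0.000818).

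That array set the spread of Socs2. In p53-/- clones the level was 10.995, 10.61 and 10.86 at 6 h and 11.49, 10.56 and 6.30 at 18 h. Intensity at 18 h before normalization was 3756.1, 1293.8 and 122.7, and the 122.7 came from the array with the fewest detected probes. The same array held the highest Socs1 value of its group, 8.98, and a Cish value, 11.03, close to those of the other clones. No Socs2 change within p53-/- cells passed, and that from 0 h to 6 h was -0.49 (95% confidence interval -1.35 to 0.38, adjusted p = 0.611 in limma). At 18 h the fitted difference between genotypes was 0.47, which gives that array little weight, whereas the plain means were 9.45 in p53-/- and 10.34 in WT cells. Its sign was therefore not settled.

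Counted by comparison, 3 of the 4 genes were lower in p53-/- cells at 0 h (Cish, Socs1 and Socs3), where 2.35% of all kept probes were called lower. At 6 h 1 of 4 was lower (Cish) against 4.23% of all probes, and at 18 h none passed, against 7.43% in either direction, with 2 (Cish and Socs3) at an unadjusted p under 0.05. In WT cells 3 of 4 fell from 0 h to 6 h (Cish, Socs1 and Socs3), where 3.82% of probes fell, and the same 3 were lower at 18 h than at 0 h, where 9.34% were. In p53-/- cells 1 of 4 fell by 6 h (Cish, against 0.985% of probes) and 1 was lower at 18 h than at 0 h (Cish, against 2.23%). From 6 h to 18 h none passed in WT cells, where 8.02% of probes did in either direction and none of the 4 had an unadjusted p under 0.05, and 1 rose in p53-/- cells (Cish, against 0.444%). The median change of the 4 genes was -1.08 between genotypes at 0 h, -1.65 in WT and -0.88 in p53-/- cells at 6 h, beside medians of all probes of 0.04, 0.02 and 0.00016. The comparisons share the 0 h groups, so a high WT level at 0 h enters both the genotype difference and the WT fall. The 4 genes were chosen with earlier results of these data known. The paper had already reported Cish, Socs1 and Socs3 as higher in WT cells in IL-3. The counts beside these shares are therefore a description and not a test of the set. At the protein level the paper saw no consistent difference in SOCS1 or SOCS3 between its WT and p53-/- lines, with SOCS1 higher in some p53-/- lines. It proposed that SOCS1 and SOCS3 levels do not explain the different response to IL-3. Only RNA was measured here.

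**Figure D2:**
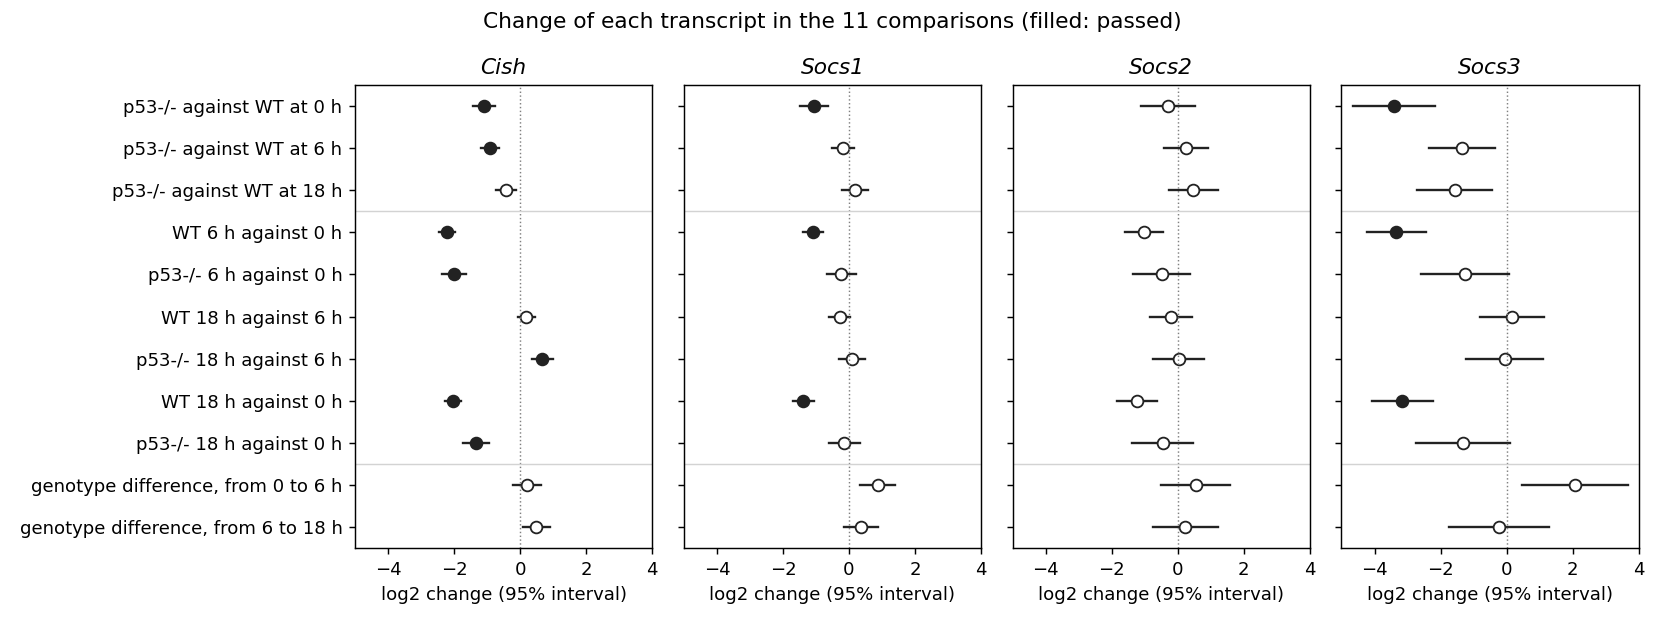
Log2 change of each gene (horizontal axis, point, with its 95% confidence interval) in the 11 comparisons on the vertical axis, filled where the gene passed. Every filled point lies below 0 except Cish in p53-/- cells from 6 h to 18 h, at 0.67, and none of the genotype differences in a change is filled.

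A difference between the genotypes in the change itself passed for none of the 4 genes in limma. At an unadjusted p under 0.05 there were 2 of the 4 (Socs1 and Socs3) from 0 h to 6 h and 1 (Cish) from 6 h to 18 h. For the first of these intervals 3 probes of all 21413 passed the adjusted threshold with positive B (0.0140%), and for the second 1.27% did. That a gene fell in WT cells and did not pass in p53-/- cells is accordingly not evidence that the responses differed. The share of all probes at the unadjusted cut is not given, here or where other counts use that cut. Such counts therefore do not set the genes apart.

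Of Socs4, Socs5, Socs6 and Socs7, whose products have broader and less well-defined partners, none passed in limma between genotypes at 0 h or in WT cells from 0 h to 6 h, with 2 at an unadjusted p under 0.05 in each. In those comparisons 927 and 1367 of all 21413 kept probes passed in either direction. Socs4 fell by 1.19 in p53-/- cells at 6 h (adjusted p = 0.0186 in limma), where 0.985% of probes fell. The WT level of Socs6 at 6 h was at least 2.22-fold that of p53-/- cells (adjusted p = 6.44e-05 in limma), in which no array detected it. At that time 4.23% of probes were called lower in p53-/- cells. At 18 h against 0 h in WT cells, where 9.34% of probes were lower, Socs4 and Socs6 were lower by 1.21 and 1.26. Socs6 was detected on 2 of 3 arrays at 18 h.

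Between genotypes at 0 h, 927 of all 21413 kept probes passed in either direction. Of 14 receptor, JAK and STAT genes 12 were measured, and none passed there in limma, with 5 at an unadjusted p under 0.05. A count of none among 12 is near that share and does not set these genes apart. The change of Il3ra, the IL-3 receptor alpha chain, was -1.02 there (adjusted p = 0.058, B -2.74 in limma). The shared beta chain Csf2rb read 0.93 (adjusted p = 0.264), Jak2 -0.42 (adjusted p = 0.283) and Stat5a 0.23 (adjusted p = 0.388). The Stat5b probe was not detected on any array. At 6 h 1 of the 12 rose in WT cells, where 2.56% of probes did, Stat2, which carries interferon signals, by 0.72 (adjusted p = 0.00304), and none passed in p53-/- cells in limma (1 at an unadjusted p under 0.05). Jak2 was lower in p53-/- than in WT cells at 6 h by 0.89 (adjusted p = 0.00449 in limma), where 4.23% of probes were lower.

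Other negative regulators of cytokine signaling gave a mixed picture. Of 15 phosphatases, PIAS proteins, adaptors and ubiquitin ligases 13 were measured. Between genotypes at 0 h, where 927 of all 21413 kept probes passed, none of the 13 did in limma, with 2 at an unadjusted p under 0.05. In WT cells at 6 h 1 fell, the JAK phosphatase gene Ptpn2 by 1.20 (adjusted p = 0.000925 in limma, where 3.82% of probes fell), and 1 rose (2.56% of probes did), the ubiquitin ligase gene Cblb. Cblb was not detected on any WT array at 0 h, and its level at 6 h was at least 1.296-fold that at 0 h (adjusted p = 0.00381 in limma). In p53-/- cells at 6 h none passed in limma, with 1 (Ptpn2) at an unadjusted p under 0.05.

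Of 15 genes known as targets of STAT5 or IL-3, 5 fell in WT cells at 6 h (against the same 3.82% of probes) and 1 rose (2.56% of probes did), Bcl6, a transcription factor gene that STAT5 represses in lymphoid cells. It was not detected on any WT array at 0 h, and its level at 6 h was at least 5.33-fold that at 0 h (adjusted p = 0.00124 in limma). In p53-/- cells 5 fell, against 0.985% of probes, and none rose in limma, with 8 at an unadjusted p under 0.05 in either direction. The 5 were the same genes: the change in WT and in p53-/- cells was -4.23 and -3.30 for Myc, -3.28 and -4.39 for Cd69, -2.002 and -1.43 for Pim2, and -1.77 and -1.73 for Pim1. Lif changed by -3.52 in WT cells, and in p53-/- cells, where no array detected it at 6 h, its level at 0 h was at least 10.7-fold that at 6 h (adjusted p = 0.000476 in limma). Pim1, which encodes a survival kinase, was the single gene of the 15 lower in p53-/- cells at 0 h (-1.21, adjusted p = 0.00991 in limma). Of all probes 2.35% were called lower there. The levels of Pim1 were 9.85 to 10.01 in WT and 8.38 to 9.01 in p53-/- clones. The median of the 15 was -0.11 at 0 h between genotypes, beside 0.04 over all probes.

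**Figure D3:**
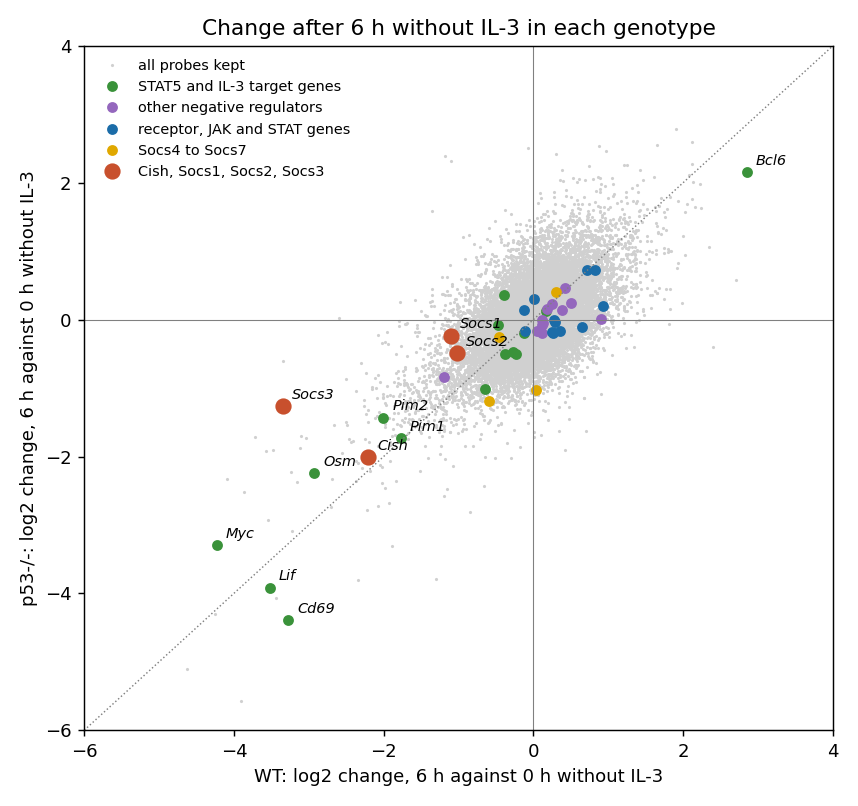
Log2 change from 0 h to 6 h without IL-3 in WT cells (horizontal axis) and in p53-/- cells (vertical axis) for all 21413 kept probes (grey) and for the listed genes (colors), with the line of equal change dotted. Cish, at -2.21 and -2.01, lies on that line beside Pim1, whereas the vertical position of Socs3, and that of Lif, is set by p53-/- values at 6 h that were not detected.

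Likeness of pattern was measured by Pearson's r of log2 levels over the 18 arrays, among 11582 named probes detected on at least 9 arrays, as a description. The genes most like Cish were F2r (r = 0.92), Qsox2 (0.92) and Lrp12 (0.92), and without the third p53-/- array at 18 h Pim1 led (0.97 over 17 arrays). For Socs3 they were Slc25a39 (0.88), Srf (0.87) and Chac1 (0.86), and for Socs1 Tars (0.88), Stub1 (0.81) and Dph1 (0.80). Those of Socs2, Rars2 (0.97), Sec23b (0.97) and Gde1 (0.96), rested on the outlying array, since without it r fell to 0.83, 0.78 and 0.82 and Poglut2 led (0.90). Among the 4 genes r was 0.80 for Cish with Socs3 (0.79 without that array), 0.67 for Socs1 with Socs3 (0.81), 0.31 for Socs2 with Socs3 (0.30) and -0.13 for Socs1 with Socs2 (0.50), so the order of the pairs depended on that array. Arrays of 1 clone share their source and all share the withdrawal of IL-3, so these values are not independent evidence of a link.

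**Figure D4:**
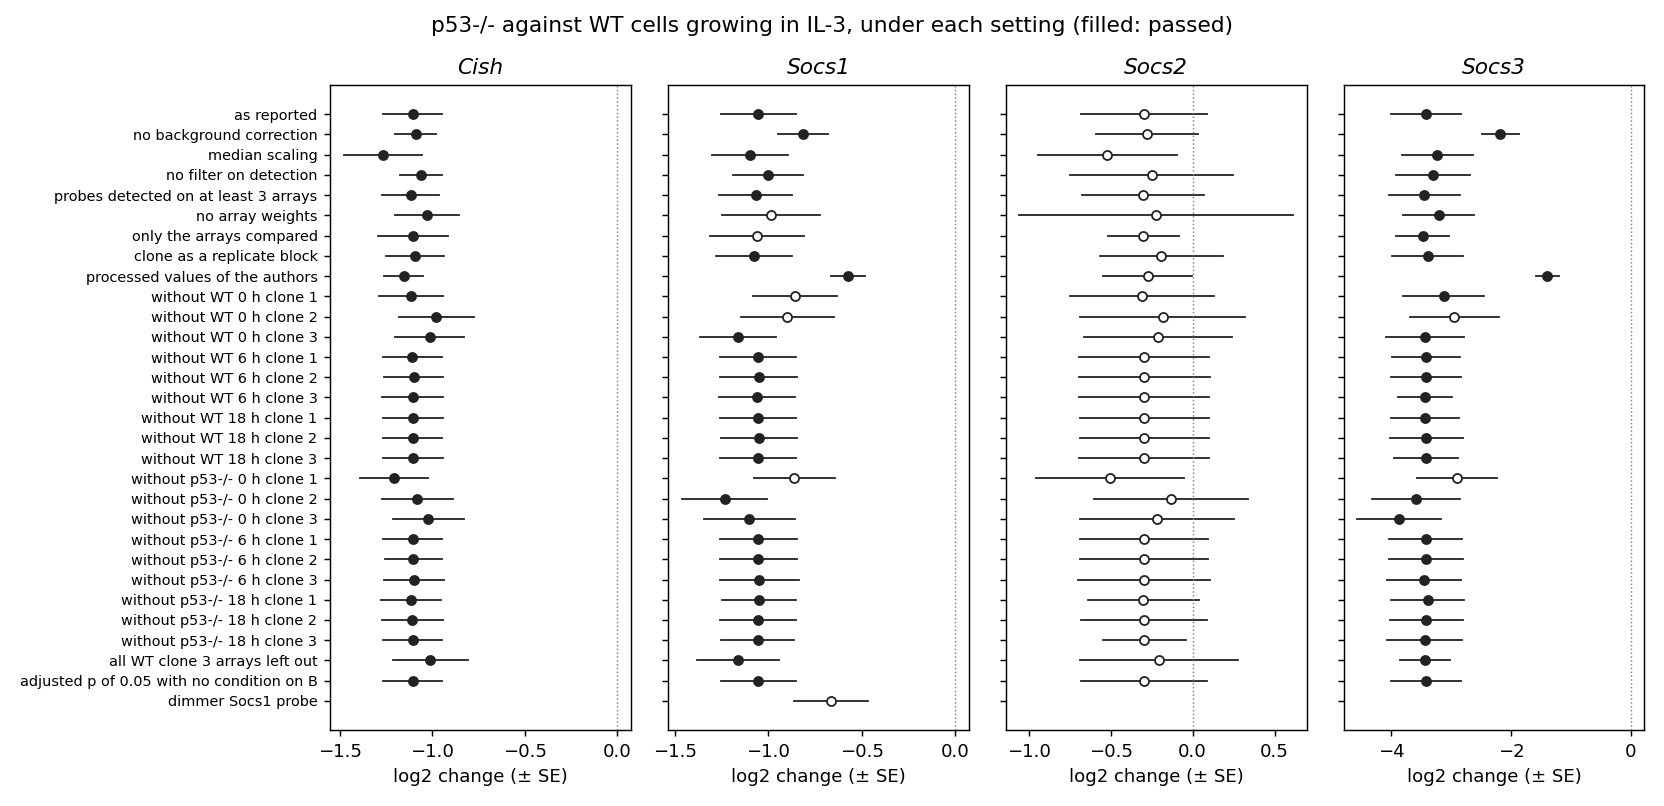
Log2 change of each gene, p53-/- against WT cells at 0 h (horizontal axis, scaled separately for each gene, point ± SE), as reported and under each other setting or with the named array left out (vertical axis), filled where the gene passed. Cish is filled in every row shown, between -0.98 and -1.27, Socs1 and Socs3 are open in some, and Socs2 is open in all.

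The count of 3 at 0 h rested on the arrays of that time point. Without the second WT array or without the first p53-/- array at 0 h only Cish passed. In the first case Socs3 read -2.94 (adjusted p = 0.0664, B -0.774) and in the second -2.90 (adjusted p = 0.0215, B -0.109) in limma, so the size stayed large and B turned negative. The size of the Socs3 difference depended on the scale, at -1.39 on the processed values of the authors and -2.18 without background correction, while its call held in both. Median scaling raised the Cish difference to -1.27.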

How the data were processed

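The authors deposited, for each of the 18 arrays, the intensity of every probe averaged over its beads and not normalized, with a detection score that is 1 minus the detection p-value and was held as a fraction. They also deposited a table of processed log2 values made with lumi (version not given in the sources used here), quantile normalized, with low signals compressed. How that scale was made was not settled here. It served only as an alternative.

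Probes were named from the annotation of the array. Of 46632 probes, 29976 had 1 symbol, 10 had several and 16646 had none. Intensities were corrected with normexp from the detection p-values (limma 3.58.1, R 4.3.3), given an offset of 16, quantile normalized and log2 transformed. The methods of the study exclude 1 array without naming it, and all 18 were used here. A linear model with 6 groups and array weights was fitted to the 21413 kept probes with lmFit and eBayes, and 11 comparisons were taken from it. P-values were two-sided, with Benjamini-Hochberg adjustment across every kept probe. The weights mean that a fitted change can differ from the difference of plain means. The precision is limited by 3 arrays in a group.

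Arrays of 1 genotype with the same replicate number deviated together from their group means (r from 0.276 to 0.756 over 18 pairs). Within a genotype but with different numbers r was -0.602 to 0.256 over 36 pairs, so equal numbers were taken as 1 clone within a genotype. Across genotypes with the same number r was -0.0806 to 0.0808 over 27 pairs. The reported model had no term for clone, so the times of a clone were not paired in it. Slides were not analysed here as a batch. The fit was also run on simulated data. Noise there was independent between arrays, unlike that of arrays of 1 clone, and the outcome is not reported here.

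The 4 genes and all gene lists were chosen with earlier results of these data known. Named genes are the 4, up to 4 called genes of a list with the smallest p in a comparison described, and the receptor, JAK2 and STAT5 genes. Bcl6 and Pim1 in WT cells at 6 h and some cell type markers were named after their values were seen. Other settings tried were no background correction, median scaling, looser and stricter detection filters, equal weights, a fit to the compared arrays only, clone as a block, another threshold, the dimmer Socs1 probe and the loss of any 1 array. Leaving out the third WT clone, and the outlying array from the likeness of pattern, was decided after seeing the data. Figures were drawn with matplotlib.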

Additional observations from a re-analysis of the deposited data

How the results depend on the processing

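The limit common to all these results is 3 clones in a group and 1 probe for Cish and Socs3. Signals of Socs3 near background in p53-/- cells give bounds at most. With 1 array left out, the count of genes called was 1 to 3 for genotypes at 0 h (1 without the second WT or the first p53-/- array), 0 to 1 for p53-/- cells at 18 h against 6 h and against 0 h, 3 to 4 for WT cells at 6 h and 2 to 4 for WT cells at 18 h against 0 h, and the other counts were as before. Of 121 counts under the other settings 115 were unchanged or within 1.5 times. For genotypes at 18 h, 1 gene passed with median scaling (Cish) and 1 at an adjusted p of 0.05 with no condition on B (Socs3), where none had. For p53-/- cells at 18 h against 6 h the count was 0 with median scaling, with no array weights, when only those arrays were fitted and without the third WT clone, where it had been 1 (Cish). The cause of these changes was not tested.

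Signs turned only for changes that had not passed. With median scaling, Socs3 in WT cells at 18 h against 6 h was -0.073, Socs1, Socs2 and Socs3 in p53-/- cells over the same interval were -0.0070, -0.45 and 0.16, and the genotype differences in that change were -0.28 for Socs2 and 0.23 for Socs3. With no array weights, Socs2 was -0.89 between genotypes at 18 h, -1.37 in p53-/- cells at 18 h against 6 h and -1.17 in the genotype difference, Socs3 in p53-/- cells over that interval was 0.050, and Socs1 in p53-/- cells at 18 h against 0 h was 0.15. Socs2 in p53-/- cells at 18 h against 6 h was -0.17 with no filter and -0.026 when only those arrays were fitted. With clone as a replicate block, Socs3 in p53-/- cells at 18 h against 6 h was 0.22 and its genotype difference 0.21, and the block changed no call but that of Socs2 in WT cells at 18 h. The dimmer Socs1 probe gave -0.23 between genotypes at 18 h, 0.23 and 0.24 in p53-/- cells at 6 h and 18 h against 0 h, 0.086 in WT cells at 18 h against 6 h and -0.077 in the genotype difference in that change.

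Leaving out 1 array also turned signs, with ranges of -1.93 to 0.66 for Socs2 between genotypes at 18 h, -2.37 to 0.22 for Socs2 and -0.12 to 0.13 for Socs3 in p53-/- cells at 18 h against 6 h, -0.39 to 0.90 for Socs3 in WT cells over that interval, -0.33 to 0.36 for Socs1 in p53-/- cells at 18 h against 0 h, and -2.17 to 0.42 for Socs2 and -0.95 to 0.34 for Socs3 in the genotype difference from 6 h to 18 h. For WT cells at 18 h against 0 h, Socs3 lost its call without the second 0 h array (-2.69) or the first (-2.45) or second (-2.85) array at 18 h, and Socs1 between genotypes at 0 h did not pass with no array weights (-0.98) or when only those arrays were fitted (-1.06). With no array weights the Socs1 fall in WT cells at 6 h (-1.02) did not pass either. Median scaling moved the median change of all probes to -0.10 in p53-/- cells at 18 h against 6 h, and to 0.10 and -0.13 in the genotype differences. The share of all calls that were lower went from 54.4% to 71.8% between genotypes at 0 h, from 59.8% to 74.7% in WT and from 58.1% to 44.9% in p53-/- cells at 6 h with it.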
